A study of Drosophila melanogaster with 6 samples.

Results

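A set of 10 genes of the cell cycle machinery were examined in Drosophila melanogaster ovaries: the cyclin genes CycE, CycA, CycB, CycB3 and CycD, the Cdc25 phosphatase gene stg, the Cdk inhibitor gene dap, the anaphase-promoting complex activator gene fzr, and the transcription factor genes E2f1 and Dp. They were taken by gene name, with letter case kept, from tables of 21158 RefSeq transcript entries that stand for 13666 genes with a value. Under these names 9 of the 10 genes were found, E2f1 as E2f, and fzr was reached through its transcript accessions, which the tables list under the older symbol rap. The 10 genes have 25 transcript entries, and the entry with the highest mean intensity stands for its gene below. RNA came from ovaries of flies kept at 25 degrees on cornmeal food with wet yeast paste, and was hybridized to 3 tiling arrays labelled uap56 and 3 labelled vasa. Both groups are named for RNA helicase genes, Hel25E (which encodes UAP56, of mRNA processing and export) and vas (which encodes Vasa, of the germline). The labels give neither the alleles nor the age of the flies, nor do they say whether replicates came from separate animals, so p-values measure the spread between these arrays, which may be technical. Ovaries with both helicase genes intact were not analysed here, so every difference is relative between the groups and cannot be assigned to either of them.

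A mitotic cell cycle alternates DNA synthesis with division, whereas an endocycle repeats DNA synthesis without division and makes polyploid cells. Cyclin E with Cdk2 drives entry into DNA synthesis in both kinds of cycle, while cyclins A, B and B3 with Cdk1 and the phosphatase String act in division. In the fly ovary germline stem cells and cysts divide first, nurse cells then endocycle, and follicle cells pass from division to endocycles at mid-oogenesis. At that passage String is turned off and the product of fzr, a relative of Cdh1, directs the anaphase-promoting complex against mitotic cyclins. Many of these proteins are controlled by destruction or phosphorylation, which RNA arrays do not measure.

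Array medians lay between 163 and 184, and every member was far above the floor value of 1 on every array. The label check gave vas intensities of 2045, 1686 and 1364 on the uap56 arrays and 267, 242 and 383 on the vasa arrays. Hel25E stood at 1617, 1598 and 1042 on the uap56 arrays and 1799.7, 1416 and 1616 on the vasa arrays, and its groups overlapped. Of the markers of the labelled tissue, the chorion gene Cp38 lay between 17097 and 21403 and the oocyte mRNA osk between 2505 and 4746. Others were dim, with the germline genes bgcn (31.5 to 59.1) and grk (49.9 to 123) and the border cell gene slbo (56.1 to 107) below the array medians, and the highest values of bam (133 to 183) and Rbp9 (46.1 to 217) close to them. Summed over lists, 4 hemocyte markers gave 945 to 1168 in uap56 and 1144 to 1356 in vasa. Most of that sum was srp alone, at 829 to 1064 in uap56 and 1022 to 1279 in vasa. Hml, NimC1 and eater did not exceed 60.3 on any array. In the same order of groups, 5 neural markers gave 386 to 464 and 362 to 562, and 5 gut markers 475 to 509.8 and 364 to 473. The 4 fat body markers gave 337 to 709 and 453 to 1321. Muscle sheath markers were present in both groups, with sums over 8 genes of 16280.2 to 23299 in uap56 and 16800.1 to 21382 in vasa. Most of that sum came from sls, bt and Act57B, while Mlc2 lay between 86.2 and 192. None of these 5 lists held a gene called in the test below, where 3.82% of all genes were called.

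The arrays showed no difference between the groups for any of the 10 genes that passed the test. In limma with an intensity trend and Benjamini-Hochberg adjustment over 13666 genes, 0 of the 10 passed an adjusted p of 0.05, where 3.82% of all genes did, and 0 passed with a single variance prior, where 0.0146% of all genes did. The groups' arrays overlapped for all 10 members, whereas they did not overlap for 23.5% of genes. One member, fzr, had an unadjusted p under 0.05, as did 18.2% of all genes, and 0 members did with the single prior. The median log2 difference, uap56 minus vasa, was 0.09 over the members and 0.02 over all genes. It was 0.07 over the 2468 genes with a mean at least that of the dimmest member, close to that of the members. Of the 10 members 8 lay above 0, where 7029 of all 13666 genes did. The members' 95% intervals in the trend fit, each taken alone, ran from -0.77 at the lowest end (fzr) to 0.68 at the highest (stg). No interval of that fit reached a log2 difference of 1 in either direction. Intervals of other fits are not given, and the SE depends on the fit (for CycB3 0.24 with the trend and 0.32 with a variance per gene alone). In bulk ovaries, fewer cells of a type and less RNA per cell cannot be told apart.

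**Figure D1:**
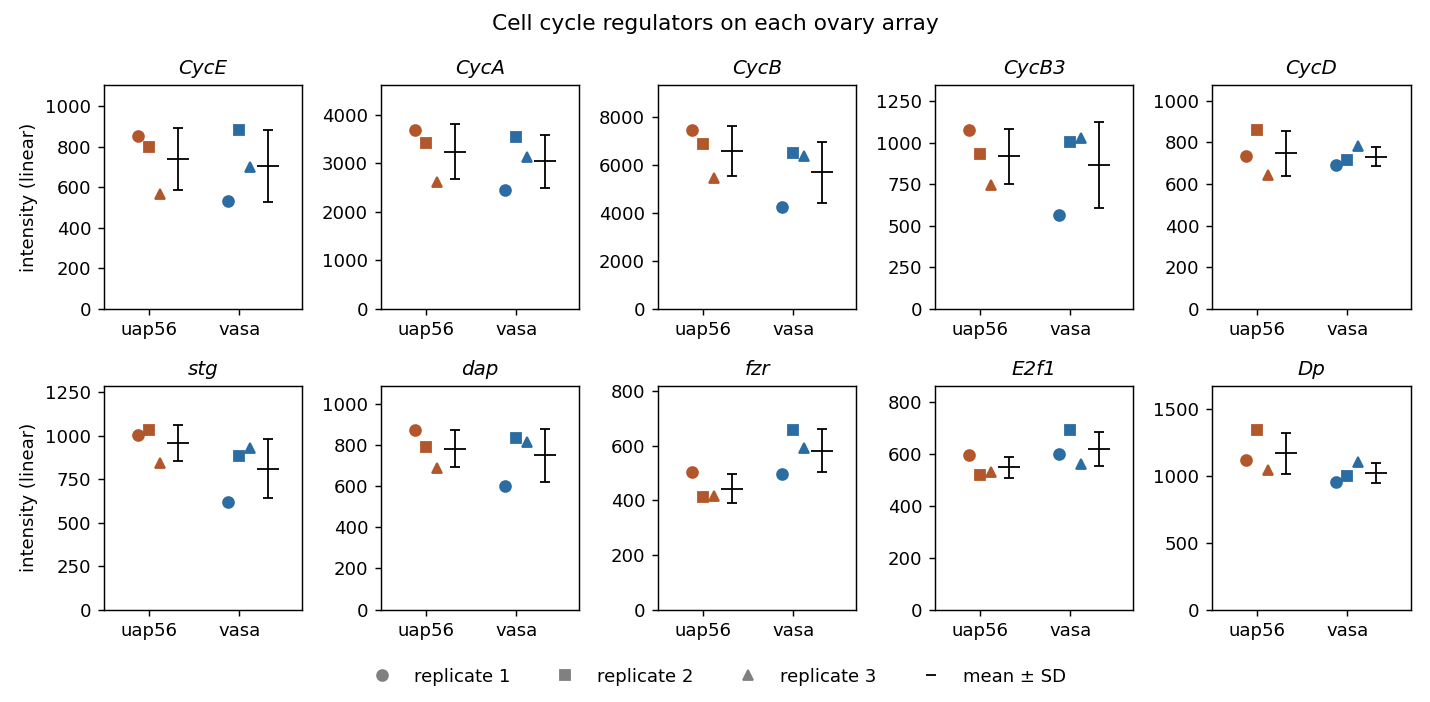
Linear intensity of the 10 cell cycle regulators on each array, with the uap56 group on the left and the vasa group on the right of each panel. Marker shapes give the replicate number, and the bars give the mean ± SD of 3 arrays. The groups overlap in every panel, and fzr comes closest to separating, with 505 as its highest uap56 value and 498 as its lowest vasa value.

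Of the G1 and S-phase cyclins, CycE, whose product drives DNA synthesis in the endocycle, had intensities of 850.0, 799 and 567 on the uap56 arrays and 531, 883 and 697 on the vasa arrays. The spread within each group was far larger than the distance between the means, 739 ± 151 in uap56 and 704 ± 176 in vasa (SD, n = 3 each). The log2 difference was 0.08 ± 0.22 (SE), with an interval from -0.43 to 0.58 and an adjusted p of 0.900 in limma. It ran from -0.11 without vasa replicate 1 to 0.26 in the fits that left out 1 array. CycD, the partner of Cdk4 in growth and G1 progression, had 735, 859.8 and 644 in uap56 and 692, 716 and 782 in vasa. The vasa values of CycD lay inside the uap56 range, and its log2 difference of 0.02 (interval -0.33 to 0.37) was the one closest to 0 among the 10.

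Of the mitotic cyclins, CycA, which acts before and during entry into mitosis, had 3688, 3409.9 and 2605 in uap56 and 2444, 3535 and 3128 in vasa. CycB, the main Cdk1 partner and one of the maternal mRNAs loaded into the egg, had 7478, 6879 and 5454 in uap56 and 4236, 6486 and 6388 in vasa. CycB3, which acts at anaphase and in female meiosis, had 1079, 931 and 748 in uap56 and 567, 1007 and 1027 in vasa. For all 3 genes uap56 replicate 3 and vasa replicate 1 were the low arrays of their groups. The log2 differences were 0.09 for CycA, 0.23 for CycB and 0.12 for CycB3, and the adjusted p in limma was 0.843, 0.592 and 0.855. The interval was narrowest for CycA (-0.31 to 0.50) and widest for CycB3 (-0.43 to 0.67). One array weighed heavily on all 3: without vasa replicate 1 the differences were -0.06 for CycA, 0.02 for CycB and -0.16 for CycB3, and the CycB difference ran from 0.02 to 0.36 over the fits that left out 1 array.

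The next pair of genes acts on Cdk activity in opposite ways. The phosphatase gene stg, whose product removes the inhibitory phosphate from Cdk1, had 1004, 1029.8 and 840.1 in uap56 and 618, 880.1 and 931 in vasa. Only vasa replicate 1 lay well below the rest, and the means were 958 ± 103 in uap56 and 809.7 ± 168 in vasa (n = 3 each). Its log2 difference of 0.26 ± 0.19 (interval -0.16 to 0.68, adjusted p = 0.517 in limma) was the largest of the members toward uap56, and was 0.08 without vasa replicate 1. The inhibitor gene dap, whose p27-like product blocks cyclin E with Cdk2, had 873, 789 and 690.5 in uap56 and 602, 836 and 815 in vasa. The dap means of 784 ± 91.2 and 751 ± 129 were within the spread of either group, with a log2 difference of 0.07 (interval -0.32 to 0.46, adjusted p = 0.882).

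The activator gene fzr had the largest difference of the members. Its signal was higher in vasa, and its 95% interval ended just below 0, but the gene did not pass the test over all genes. Its intensities were 505, 411 and 415 on the uap56 arrays and 498, 657 and 592 on the vasa arrays. The highest uap56 array exceeded the lowest vasa array, so the groups touched at one end. The means were 444 ± 53.2 in uap56 and 582 ± 79.6 in vasa (n = 3 each), 1.31-fold higher in vasa. The log2 difference was -0.39 ± 0.17 (SE), with an interval from -0.77 to -0.01 and an adjusted p of 0.262 in limma with the trend and 0.394 with a single prior. A difference at least as far from 0 was found in 44.1% of all genes. The second fzr transcript gave -0.46 (adjusted p = 0.163 when every transcript was tested on its own), and the sign held in all fits that left out 1 array, with values from -0.50 to -0.30.

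E2f1 and Dp encode the 2 partners of the activating E2F transcription factor, which turns on S-phase genes. E2f1 had 596, 520.4 and 529.8 in uap56 and 601, 691 and 563 in vasa, with 2 uap56 arrays below every vasa array. Dp had 1118, 1339 and 1045 in uap56 and 953, 1001 and 1101 in vasa, so that the 2 partners had differences of opposite sign. The log2 difference was -0.17 for E2f1 (interval -0.51 to 0.17, adjusted p = 0.619) and 0.19 for Dp (interval -0.14 to 0.52, adjusted p = 0.550), and neither passed. Over the fits that left out 1 array the difference ran from -0.23 to -0.09 for E2f1, nearest to 0 without vasa replicate 2, and from 0.09 to 0.27 for Dp, nearest to 0 without uap56 replicate 2.

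The transcript entries of a gene gave like answers. The 5 CycE entries had log2 differences from 0.02 to 0.12, the 4 CycB entries from 0.23 to 0.28, the 3 E2f1 entries from -0.23 to -0.17 and the 2 Dp entries 0.07 and 0.19. The 3 CycD entries straddled 0, from -0.02 to 0.03. The 2 dap entries held identical values on every array, and entries of a gene may share probes, so they are not independent readings. Of the 25 entries, 0 passed when every transcript was tested on its own. The label marks double-stranded DNA and so carries no strand, and in the RefSeq gene table CycA overlaps CG7264, Dp overlaps Fsn, CycE overlaps 2 noncoding genes and E2f1 overlaps 5, so signal from such neighbours cannot be told apart in shared bases. The other 6 members overlapped no gene in that table. Fsn had a log2 difference of 0.17, close to that of Dp, and CG7264 was dim (68.6 ± 21.8 in uap56 and 55.6 ± 10.3 in vasa).

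**Figure D2:**
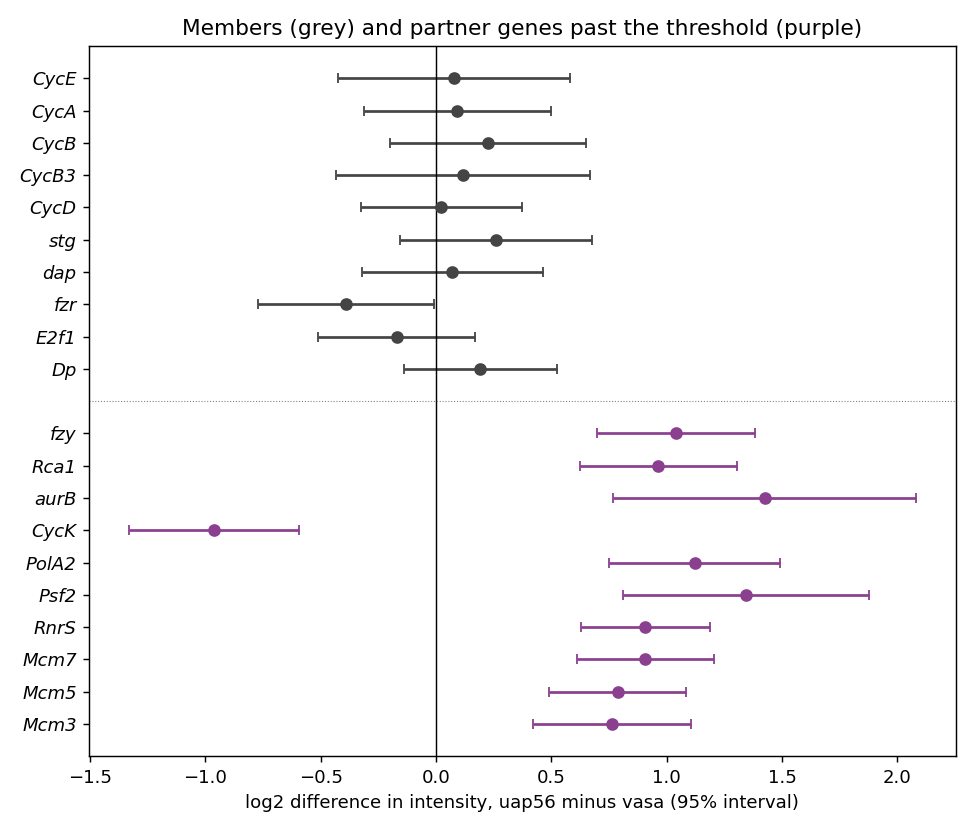
Log2 difference in intensity, uap56 minus vasa, with its 95% interval from limma with an intensity trend. Shown are the 10 members (grey, above the dotted line) and 10 genes from cell cycle lists that passed an adjusted p of 0.05 (purple). The purple genes were chosen for passing. The grey intervals span 0 except that of fzr, which ends at -0.01, and no grey interval reaches 1 or -1.

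The values of most members moved together across the arrays of a group. In 8 of the 10 members (CycE, CycA, CycB, CycB3, CycD, stg, dap and Dp) the lowest uap56 array was replicate 3 and the lowest vasa array was replicate 1. The share with both was 16.9% of all genes and 23.3% of the 2468 genes with a mean at least that of the dimmest member, a pattern noticed in these values and not tested. On uap56 replicate 3 the deviation from the group mean was -0.36 (log2) for CycE, -0.30 for CycA, -0.26 for CycB and -0.28 for CycB3. On vasa replicate 1 it was -0.37 for CycE, -0.30 for CycA, -0.40 for CycB and -0.56 for CycB3, and -0.37 for stg and -0.30 for dap. The median of all genes deviated by -0.08 and 0.04 on these arrays, so the low values exceeded the general shift of the array. Germline markers deviated in the same direction, with a list median of -0.22 and -0.16, and 6 of 11 were lowest on both arrays. Follicle cell markers had medians of -0.16 and 0.13, and 0 of 15 were lowest on both. The share was not particular to germline markers (54.5%). It was 62.5% in the list of ubiquitin ligases, 57.1% in that of other cyclins, 57.1% in that of the follicle cell switch and 52.9% in that of mitotic genes. Nor was it general to cell cycle lists. It was 33.3% in the E2F and retinoblastoma list, 28.6% in that of replication and 17.6% in that of the anaphase-promoting complex. Among cyclin-dependent kinases and their modifiers 0 of 12 were lowest on both. The part of cell composition in the members' array-to-array spread was not tested.

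With both of these arrays left out, a choice made after seeing the data, the 4 remaining arrays gave log2 differences of 0.07 for CycE, 0.09 for CycA, 0.16 for CycB, -0.02 for CycB3 and 0.17 for stg. The fzr difference was then -0.45, with an adjusted p of 0.236 in limma, and 0 members passed. Only 2 genes of all passed in this fit of 2 arrays per group.

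**Figure D3:**
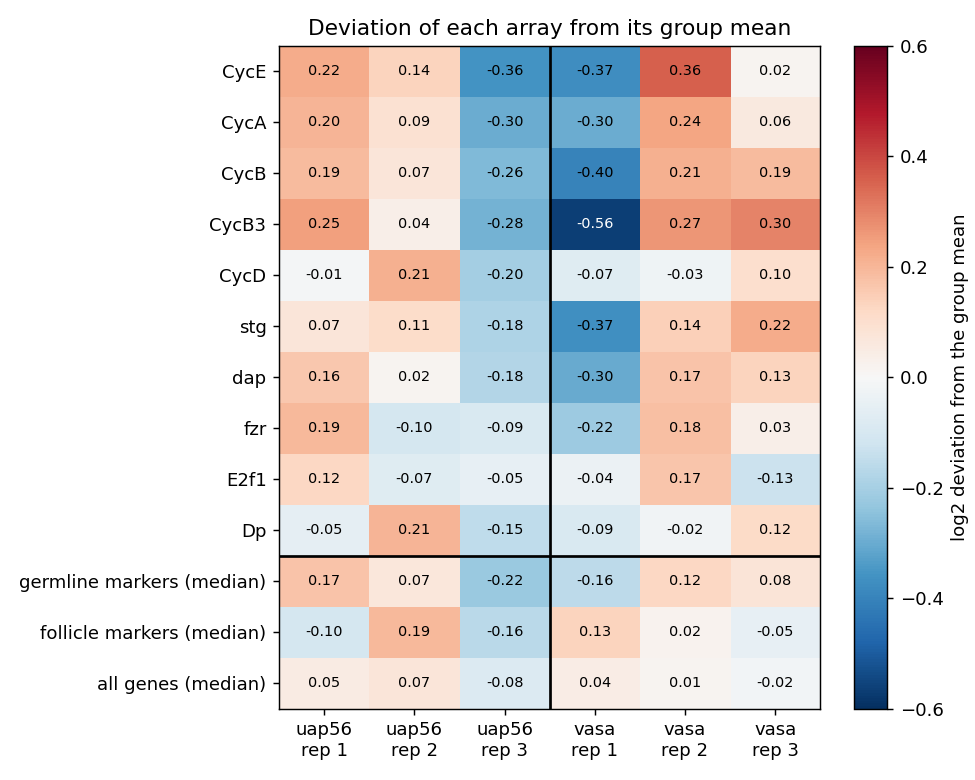
Log2 deviation of each array from the mean of its own group (columns) for the 10 members and for the medians of 11 germline markers, 15 follicle cell markers and all genes (rows). Blue cells are below and red cells above the group mean. The columns of uap56 replicate 3 and vasa replicate 1 are blue for every member, down to -0.56 for CycB3.

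Among partners and regulators of these genes, taken from 8 lists of 105 measured genes, 10 passed the trend fit, 9 higher in uap56 and CycK higher in vasa. Over all genes 2.49% passed toward uap56 and 1.33% toward vasa. Among the 2468 genes as bright as the dimmest member 8.87% passed in either direction. The lists also hold dimmer genes, the called Psf2 and aurB among them, so neither share is matched to the lists in brightness. Leaving out a single array, the count was 10 for replicate 1 of either group, 6 for uap56 replicate 3, 2 for vasa replicate 2, 2 for vasa replicate 3 and 0 for uap56 replicate 2. It was 0 with a single variance prior.

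In the anaphase-promoting complex list 2 of 17 genes passed, both toward uap56 (median of the list -0.06). The gene fzy encodes the Cdc20 relative that activates the complex in mitosis, the counterpart of fzr. Its intensities were 1326, 1546 and 1475 on the uap56 arrays and 602, 791 and 728 on the vasa arrays. The groups were far apart, with a log2 difference of 1.04 ± 0.15 (adjusted p = 0.0113 in limma, 0.130 with a single prior). The call held in 5 of the 6 fits that left out 1 array and was lost without uap56 replicate 2 (adjusted p = 0.0589). Rca1, which encodes an inhibitor of the complex bound to Fzr, had 846, 1018 and 886 in uap56 and 420.1, 511 and 479 in vasa. Its difference was 0.96 ± 0.15 (adjusted p = 0.0141, 0.133 with a single prior), and its call held in 3 of 6 such fits, being lost without uap56 replicate 2, vasa replicate 2 or vasa replicate 3 (adjusted p = 0.0511 to 0.0677). The core subunits, among them shtd, ida, mr, Cdc16, Cdc23 and Cdc27, did not pass. APC4 (0.54), lmgA (-0.54) and APC7 (-0.47) did not pass either. Nor did gnu (0.49, adjusted p = 0.0841 in limma) and plu (0.71) of the same list, which also holds regulators of the complex. APC4, lmgA, APC7, gnu and plu were named after their values were seen, and had an unadjusted p under 0.05 in the trend fit. With fzy and Rca1 they are the 7 of the 17 genes of the list that did, against 18.2% of all genes.

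Set against fzr on the same array, fzy had log2 ratios of 1.39, 1.91 and 1.83 in uap56 and 0.27, 0.27 and 0.30 in vasa. The ratio was higher in uap56 by 1.43 (1.71 ± 0.28 against 0.28 ± 0.02, n = 3 each), and the ratio of Rca1 to fzr by 1.35. These pairs were chosen for their differences after the values were seen, so the ratios are a description with no test. Of the members, 8 of the other 9 had ratios to fzr that did not overlap between the groups, all higher in uap56, where 27.9% of genes did so. The log2 ratio of stg to fzr was 0.99, 1.32 and 1.02 in uap56 and 0.31, 0.42 and 0.65 in vasa. That of CycB to fzr was 3.89, 4.06 and 3.72 in uap56 and 3.09, 3.30 and 3.43 in vasa. E2f1 was the exception, with 0.24, 0.34 and 0.35 in uap56 and 0.27, 0.07 and -0.07 in vasa. All of these ratios share the fzr values, and fzr was taken as the denominator knowing that it had the largest difference of the members, toward vasa, which by itself raises every ratio in uap56. On vasa replicate 1 fzr was also low (-0.22 from its group mean, log2), as were CycE (-0.37) and CycB (-0.40), and less so CycD (-0.07) and Dp (-0.09). Division by fzr removes part of such shared deviations, so the 27.9% of all genes is not a matched share. The ratios therefore show no change of a member.

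**Figure D4:**
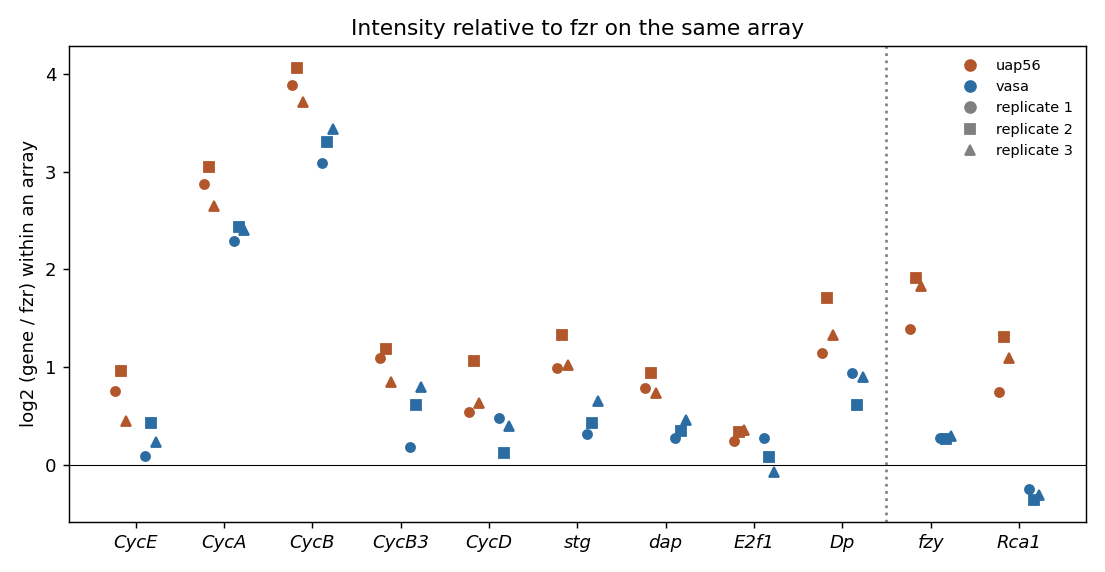
Log2 ratio of the intensity of each gene to that of fzr on the same array, for the other 9 members and, right of the dotted line, for fzy and Rca1. Colours give the group and shapes the replicate. Heights of different genes are not comparable, since their probes differ. The groups separate for every gene shown except E2f1, with the widest gap for fzy (0.28 ± 0.02 in vasa and 1.71 ± 0.28 in uap56).

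The kinases that the cyclins bind did not pass. In the list of cyclin-dependent kinases and their modifiers 0 of 12 genes were called in limma with the trend or with a single prior, with 3 at an unadjusted p under 0.05 in the trend fit and a median of 0.29. Cdk1, the partner of cyclins A and B, had 2416, 2873 and 2733 in uap56 and 2005, 1976 and 1488 in vasa, a difference of 0.56 ± 0.15 (adjusted p = 0.0819). The meiotic Cdc25 gene twe, the paralog of stg, had 503, 635 and 529 in uap56 and 325, 363 and 396 in vasa, a difference of 0.62 ± 0.17 (adjusted p = 0.0754). Both were named for the smallest p of the list. Their groups did not overlap, as was so for 3 of the 12 genes of the list (25%) and 23.5% of all genes. The groups of CycA, CycB and stg overlapped, and a test of that contrast was not made. Cdk2, the partner of cyclin E, stood at 1136 ± 86.6 and 1138 ± 65.5, a difference of 0.00, and was named after its value was seen.

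Of 7 other cyclins 1 passed. CycK, the partner of Cdk12 in transcription elongation, had 418, 351 and 308 in uap56 and 651, 703 and 733 in vasa, so that every vasa array was above every uap56 array, and the difference was -0.96 ± 0.16 on the log2 scale (adjusted p = 0.0176 in limma, 0.140 with a single prior). The call held in 2 of 6 fits that left out 1 array, with an adjusted p of 0.0503 to 0.0833 in those where it was lost (without uap56 replicate 2 or 3, or vasa replicate 2 or 3). In this list 5 of 7 genes had groups that did not overlap, against 23.5% of all genes, and the same 5 had an unadjusted p under 0.05, against 18.2%. They went both ways, with CycC (0.57) and CycH (0.62) toward uap56 and CycG (-0.38), CycK and CycT (-0.58) toward vasa, and the median was -0.14. CycC, CycH, CycG and CycT did not pass and were named after their values were seen.

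Among 9 genes of the E2F, retinoblastoma and Myb-MuvB complexes, which partner or oppose E2f1 and Dp, 0 passed in either fit, 1 had an unadjusted p under 0.05 in the trend fit, and the median was -0.05. E2f2, the repressor E2F, had 877, 723 and 673 in uap56 and 554, 511 and 476 in vasa, a difference of 0.55 ± 0.16 (adjusted p = 0.0911). The groups of E2f2 were apart, as was so for 2 of the 9 genes of the list (22.2%) and 23.5% of all genes. Those of E2f1 overlapped, with the opposite sign. Caf1-55 had 0.21 (adjusted p = 0.444) and Rbf, the retinoblastoma gene, 0.01, the latter named after its value was seen. Of 8 genes of the ubiquitin ligases that destroy S-phase regulators 0 passed in either fit, 1 had an unadjusted p under 0.05 in the trend fit, and the median was -0.04. The smallest p were those of l(2)dtl (0.52, adjusted p = 0.182) and ago, whose product targets cyclin E for destruction (0.33, adjusted p = 0.332).

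Genes of DNA replication were the list with the most calls, 6 of 28 higher in uap56 and 0 in vasa. Over all genes 2.49% were called toward uap56 and 1.33% toward vasa. The list's median was 0.48 and 22 of 28 lay above 0, where 7029 of all 13666 genes did. The earlier results of these data already showed this list's direction. PolA2, a subunit of DNA polymerase alpha, had 1058, 1293 and 1087 in uap56 and 619, 455 and 512 in vasa, a difference of 1.12 ± 0.16 (adjusted p = 0.0113, 0.130 with a single prior). Psf2, of the GINS complex of the replicative helicase, had 417, 338 and 545 in uap56 and 192, 186 and 131 in vasa. Its difference was 1.34 ± 0.24 (adjusted p = 0.0193 in limma, 0.145 with a single prior), and its call held in 2 of 6 fits that left out 1 array. RnrS (0.91), Mcm7 (0.91), Mcm5 (0.79) and Mcm3 (0.76) complete the 6. Their calls held in 5, 3, 3 and 2 of 6 such fits, in that order, and the call of PolA2 in 3. Leaving out a single array, the list had 6 calls for replicate 1 of either group, 4 for uap56 replicate 3, 1 for vasa replicate 2 or 3 and 0 for uap56 replicate 2, and its median stayed between 0.38 and 0.55 in these fits. CycE, E2f1 and Dp, which act upstream of these genes, had 0.08, -0.17 and 0.19.

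Of 17 mitotic genes 1 passed, where 3.82% of all genes did. The median was 0.18 and 15 of 17 lay above 0, where 7029 of all 13666 genes did. The kinase gene aurB, of the chromosomal passenger complex, had 476, 508 and 713 in uap56 and 325, 147 and 187 in vasa, a difference of 1.42 ± 0.29 (adjusted p = 0.0329, 0.178 with a single prior). Its call held in 2 of 6 fits that left out 1 array, and in the others, those without uap56 replicate 2 or 3 or vasa replicate 2 or 3, its adjusted p was 0.0985 to 0.123. Of 7 genes of the switch from mitosis to endocycle in follicle cells 0 passed in either fit, 0 had an unadjusted p under 0.05 in the trend fit, and the median was -0.18. N, the Notch receptor gene, had -0.44 (adjusted p = 0.382), and ct, which Notch represses in follicle cells at that step, -0.26 (adjusted p = 0.580). Single arrays moved both values, N to -0.19 without uap56 replicate 3 and to -0.67 without uap56 replicate 1, and ct to -0.09 without vasa replicate 1.

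**Figure D5:**
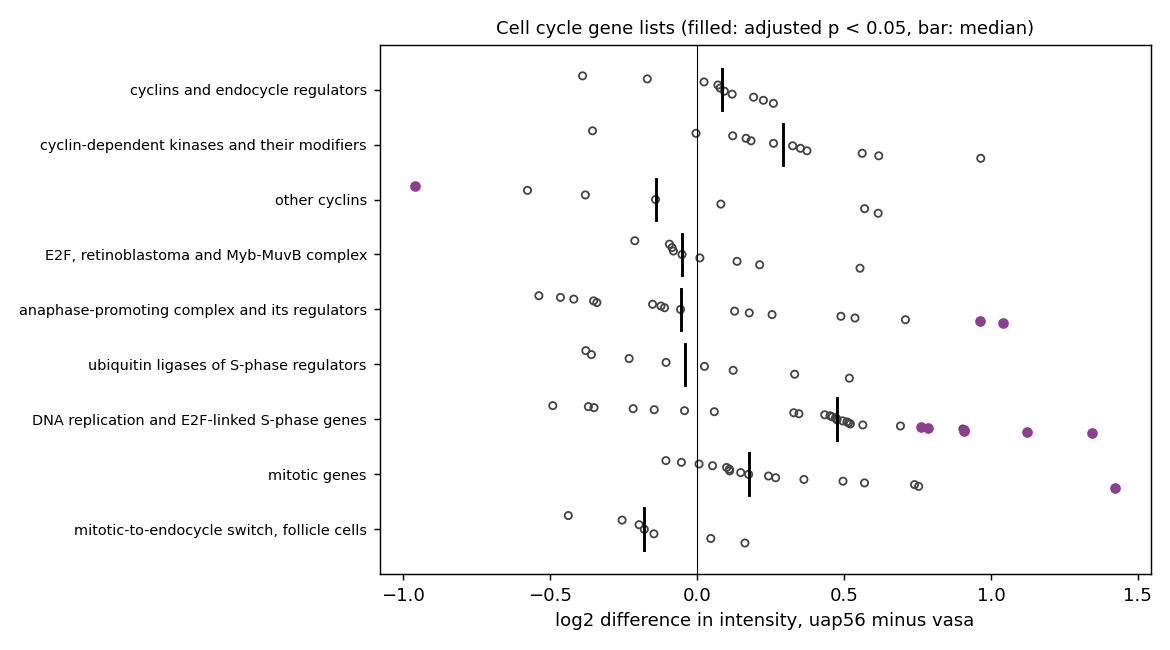
Log2 difference in intensity, uap56 minus vasa, of each gene (circles) in the 10 members and 8 cell cycle lists (rows), with black bars at the median. Filled circles passed an adjusted p of 0.05 in limma with an intensity trend. The members hold no filled circle and a median of 0.09, and the replication list has 6 filled circles and a median of 0.48.

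The marker lists of the main ovarian cell types held 1 call each, where 3.82% of all genes were called. Of 11 germline markers 1 was called toward uap56, nanos (5579 ± 322 in uap56 and 3455 ± 275 in vasa, adjusted p = 0.0171, lost in 4 of the 6 fits without 1 array, at 0.0531 to 0.0816), and the list's median was -0.36. Only 4 of the 11 lay above 0, so nanos went against its list. The groups did not overlap for 6 of the 11 (54.5%), against 23.5% of all genes. In the trend fit 6 had an unadjusted p under 0.05, against 18.2%. Besides nanos these were Rbp9 (-1.34, adjusted p = 0.0507 in limma), otu (-0.53), osk (-0.53), orb (-0.49) and bru1 (-0.36), picked with that p known. Without vasa replicate 1 the list also had 1 call toward vasa. The summed germline signal was 13675 to 16693 in uap56 and 14439 to 17710.5 in vasa. Of 15 follicle cell markers 1 was called toward uap56, the late chorion gene Cp15 (18081 ± 1949 in uap56 and 11067 ± 1691 in vasa, adjusted p = 0.0291, lost in 4 of the 6, at 0.0608 to 0.113), and the median was 0.05. The linear sum over the 15 follicle cell markers, 124440.0 to 153526 in uap56, was above the 110340.0 to 122353 of vasa. That sum weighs the brightest genes most, among them the chorion genes Cp15, Cp18, Cp36 and Cp38, all with log2 differences above 0. Only 8 of the 15 markers lay above 0, and Yp1 (-0.20), Yp2 (-0.32) and tj (-0.36) were among those below. The part of a difference in stage or cell composition in the calls above was not tested.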

How the data were processed

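Ovarian total RNA was isolated on Qiagen columns, and its double-stranded cDNA was end-labelled with biotin for Affymetrix arrays, per the labels' protocols. The deposited values are intensity summarised per RefSeq transcript and normalized by the authors, per the labels. How they were normalized, which probes were used and on which genome build is not given in the sources used here. Values are linear. The 393 of 21158 entries at 0 on every array were left out, and log2 was taken with no pseudocount. Entries were named through a RefSeq table on Release 6 (19234 by accession, 1341 by name, 583 kept), and each gene was represented by its brightest entry (highest mean intensity over the 6 arrays). Groups were compared with R 4.3.3 and limma 3.58.1 (linear models with empirical Bayes moderation, an intensity trend and the robust option, two-sided, Benjamini-Hochberg over 13666 genes, threshold 0.05). The members, the gene lists and the choice of the trend fit were made with earlier results of these data known. The single-prior fit, which passes 2 genes against 522, is given beside it. Intervals are 95% and cover one gene at a time. The text names the members, called genes of each cell cycle list (up to 6, or the 2 with the smallest p where none passed), called markers, Hel25E and vas, and other genes where marked. The fit was tried on simulated data with noise independent between genes and arrays. Array deviations shared between genes, and small added changes like those of the members, were not simulated, so it does not bear on them. Depth does not apply to arrays, and the number of arrays limits the precision. Transposon tables were not used.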

Additional observations from a re-analysis of the deposited data

How the results depend on the processing

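The count of members called was 0 under all 22 alternatives, with adjusted p from 0.166 (fzr) to 0.996 (CycB3) over all members and alternatives. CycB, stg, fzr, E2f1 and Dp kept their sign in each. The others changed sign near 0. With quantile normalization CycE was -0.00794, CycD -0.0573 and dap -0.0179, and CycB3 was -0.0211 with uap56 replicate 3 and vasa replicate 1 both left out, which also turned Hel25E to 0.0877. Leaving out 1 array at a time, the ranges were -0.11 to 0.26 for CycE, -0.0554 to 0.24 for CycA, -0.16 to 0.27 for CycB3, -0.0838 to 0.12 for CycD, -0.0811 to 0.16 for dap and -0.31 to 0.00399 for Hel25E. Of all genes 522 passed, and of the pathway lists 10. These counts were 2 and 0 with a single prior, 2 and 0 with the robust option and no trend, 3 and 0 with a variance per gene alone, 57 and 1 at an adjusted p of 0.01, 1056 and 16 over every transcript entry, and 2 and 0 without both arrays named above, an alternative chosen after seeing the data. Without 1 array they ran from 69 to 506 and from 0 to 10. With the replicate block they were 233 and 6, and the replicate numbers share no label of pairing, with correlations of same-numbered deviations of -0.0283 to -0.000108, so the block is no evidence on size. Of the calls, 65.1% were higher in uap56 and 52.5% after quantile normalization (375 against 340), and without uap56 replicate 2 the majority turned to vasa (28 higher in uap56 and 41 in vasa, 40.6%). Intensity over background could not be set apart from the authors' normalization.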
